A study of Mus musculus with 2 samples.

Results

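Mature oligodendrocytes wrap the axons of the optic nerve in myelin, a lipid-rich membrane, and their RNA is dominated by myelin proteins and by the enzymes that build myelin lipids. Cholesterol is a main lipid of that membrane, and oligodendrocytes make most of it themselves. When sterols run low, the SREBP2 factor switches on the synthesis enzymes. When sterols are in excess, liver X receptors switch on apolipoprotein E and the ABC transporters that move sterols out of the cell.

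The injured oligodendrocytes described here are the 84 barcodes of the injured library that the authors typed as oligodendrocytes and that held at least 8000 unique molecular identifiers (UMIs, 1 per captured RNA molecule). They are 28.7% of the 293 oligodendrocyte barcodes of that library (exact 95% interval 23.6 to 34.2%), and 84 of all 1369 oligodendrocyte lineage barcodes of the series. They were chosen by depth, so their depth is a description and not a finding. The authors' typing used the same expression values, so the oligodendrocyte genes below are a description as well. They were set against the 203 uninjured oligodendrocyte barcodes of at least 8000 UMIs, which are 23.7% of 857 (20.9 to 26.7%). Both groups are called deep here.

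Both libraries came from Wildtype mice of the 129S1/SvlmJ strain with males and females pooled. For the injured library 5 nerves were pooled from mice aged 10 weeks, 2 weeks after an optic nerve crush (ONC) at 8 weeks of age, and for the uninjured library 5 nerves of the same age without ONC. Both sets of labels give postnatal day 56 and the crush treatment, and only the title of the control library marks it as uninjured. In each library 6000 cells were loaded on a Chromium droplet system. The injured tissue was the crush site. The 5 nerves of a condition share 1 library and cannot be told apart. With 1 library per condition, no difference below has a replicate check, and no p-value was computed. All intervals are exact 95% intervals and cover counting error only.

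A deep injured barcode held a median of 22473 UMIs (8982 to 58568) and of 5131.5 genes, and a deep uninjured barcode a median of 11054 UMIs (8015 to 34653) and of 3341 genes. The summed depth was 2001123 UMIs after ONC and 2437704 UMIs without injury. Of the injured oligodendrocytes, the 3 nearest above the limit held 8982, 9122 and 9338 UMIs with 11, 5 and 21 UMIs of Apoe, and the 3 nearest below it held 7857, 6616 and 6324 UMIs with 9, 6 and 2 UMIs of Apoe. The median share of mitochondrial UMIs was 3.06% in deep injured and 5.95% in deep uninjured barcodes. Malat1, an RNA kept in the nucleus, made up a median of 3.07% of UMIs after ONC (0.669 to 16.9%) and 4.50% without injury. Scrublet, a doublet caller, marked 0 of the 84 and 2 of the 203 deep barcodes. It marked 0.732% of the injured and 1.25% of the uninjured barcodes in all. The libraries shared 0 barcode sequences.

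The label oligodendrocyte was checked against 20 mature oligodendrocyte markers, all of which were found. Their summed level was 94632 CPM (counts per 1000000 UMIs of the group) in deep injured and 108073 CPM in deep uninjured barcodes. The markers of precursors were near 0, with 53.5 CPM over 10 OPC genes after ONC. Macrophage and microglia genes were at 151 CPM over 18 genes in deep injured and 30.4 CPM in deep uninjured barcodes. In a single deep injured barcode they made up at most 0.0700% of UMIs, with a median of 3 UMIs. Among the defining genes, Ptprc was at 0 UMIs, Aif1 at 1, Cx3cr1 at 2 and Csf1r at 4 in the 84 barcodes together, against 48 UMIs of Spp1, 41 of Lyz2 and 29 of C1qb. Lgals3, the only list member with at least 50 UMIs summed over both groups, was higher after ONC, with a log2 ratio of 4.09. Without Lgals3, 247 of the list's 303 UMIs in deep injured barcodes remained. Genes of astrocytes (70.5 and 179 CPM), Schwann cells (119 and 154 CPM) and endothelial cells (5.50 and 22.6 CPM) were lower after ONC, and those of fibroblasts were at 19.5 and 19.3 CPM.

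Across all genes, 7631 had at least 50 UMIs summed over both groups and were compared. Of these, 594 (7.78%) were at least 2-fold higher in deep injured oligodendrocytes and 239 (3.13%) at least 2-fold lower, by the ratio of CPM of summed UMIs. The median log2 ratio was 0.14. With that median set to 0, the numbers were 433 higher and 320 lower, so that the higher genes made up 57.5% of the calls in place of 71.3%.

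**Figure D1:**
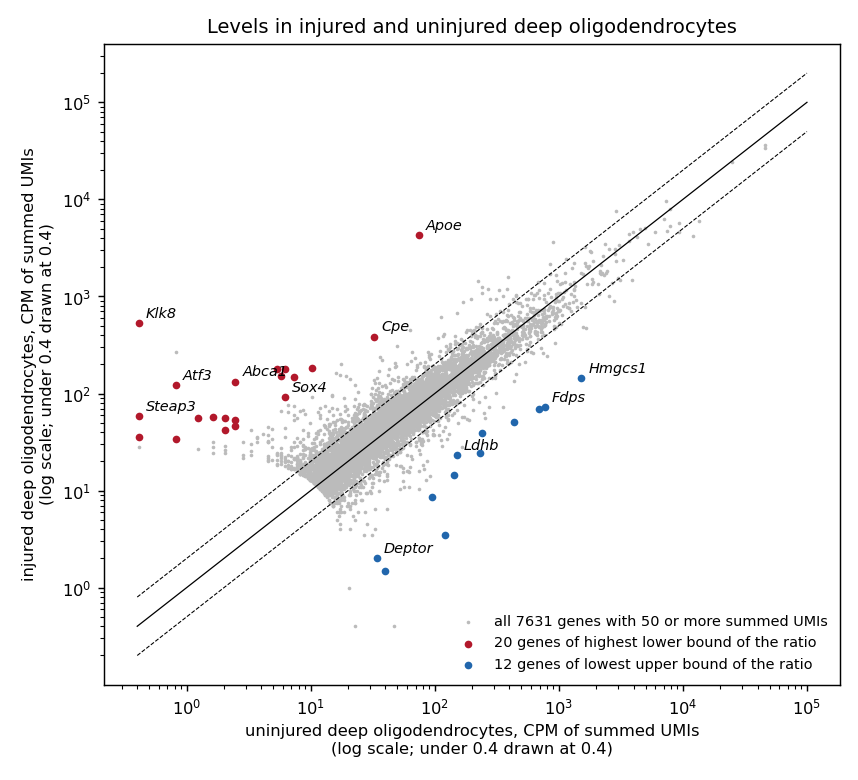
Levels of 7631 genes (grey) in deep uninjured (x axis) and deep injured (y axis) oligodendrocytes, as CPM of summed UMIs on log scales, with lines at equal levels and at 2-fold differences (dashed). Klk8, Apoe, Atf3, Abca1 and Steap3 lie farthest above the lines, and Hmgcs1 and Fdps are among those farthest below them.

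Klk8, which encodes the secreted serine protease neuropsin, had the largest ratio of all 7631 genes. It had 1067 UMIs in deep injured barcodes, 533 CPM (502 to 566 CPM), and 1 UMI in deep uninjured barcodes, 0.410 CPM. The ratio was 1300, with a counting interval of 233 to 51386 that is wide because it rests on that 1 UMI. Klk8 was found in 63 of the 84 injured barcodes, 75% (64.4 to 83.8%), and in 1 of the 203 uninjured barcodes. After each barcode was thinned to 8000 UMIs, the injured barcodes ranged from 0 to 34 UMIs of Klk8 with a median of 1.5, and every uninjured barcode was at 0. At that depth 28 of the 84 were at 0, so the injured barcodes overlap with the uninjured ones at 0 and spread widely above it.

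Klk8 (ENSMUSG00000064023) lies at chr7:43797577-43803826 of GRCm38 on the plus strand, in the kallikrein cluster between Klk9 (chr7:43791891-43796757) and Klk6 (chr7:43824499-43832030). Of the 13 kallikreins in the list, 3 passed the minimum and all 3 were higher, beside 7.78% of all genes. Klk8 (1067 UMIs against 1) and Klk9 (89 against 15) passed it only through their injured UMIs. Klk8 is also 1 of the 6 marker genes, chosen with these data known. The count of 3 is therefore no support beyond the single ratios. Klk6, a trypsin-like protease that mature oligodendrocytes are known for, was at 3639 CPM after ONC and 889 CPM without injury, a ratio of 4.09 (3.9 to 4.3). Klk9 was at 44.5 and 6.15 CPM, a ratio of 7.23 (4.16 to 13.5). The other 10 held at most 10 UMIs each in the injured barcodes, and Klk7 had those 10, against 0. Klk8 and Klk9 both overlap 2310002F09Rik on the other strand, and whether counting used strand is not given in the sources used here. Klk6 also varied with depth without injury, at 577 CPM in barcodes of 8000 to 12000 UMIs, 1069 CPM from 12000 to 20000 and 1958 CPM above 20000. Its ratio was 8.45, 2.77 and 1.88 in those windows. The summed level of the 13 genes had ratios of 9.46, 3.09 and 2.19 there.

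Apoe encodes apolipoprotein E, the carrier onto which glia load cholesterol. It had 8513 UMIs in deep injured and 182 in deep uninjured barcodes, 4254 and 74.7 CPM, a ratio of 57.0 (49.2 to 66.4). At 8000 UMIs per barcode the injured barcodes had a median of 27 UMIs (0 to 136), and the uninjured a median of 0 (0 to 28). Apoe was above 0 in 82 of 84 injured barcodes (97.6%) and in 18.2% of the uninjured, and the highest uninjured barcode, with 28 UMIs, lay just above the injured median. Leaving out the barcode of each group with most Apoe gave a log2 ratio of 6.23 in place of 5.83.

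Abca1, the transporter that hands cholesterol to apolipoproteins, was at 132 and 2.46 CPM, a ratio of 53.8 (24.4 to 148). It was found in 85.7% of injured and 2.96% of uninjured barcodes, and after thinning in 59.5% and 1.48%. Soat1, which esterifies cholesterol for storage, was 3.21-fold higher (2.13 to 4.95). These 3 of the 10 measured members of the sterol efflux and trafficking list were past 2-fold, and none was lower. Of all genes, 7.78% were higher and 3.13% lower. Apoe and Abca1 are marker genes chosen with these data known, so Soat1 alone of the 3 is not. Abca1 (265 UMIs against 6) also passed the minimum only through its injured UMIs. The list's median log2 ratio was 0.48. Abcg1, another sterol exporter, had a ratio of 1.6 (1.36 to 1.88), and the lysosomal sterol proteins Npc1 and Npc2 had ratios of 1.15 and 1.01.

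Cholesterol synthesis, a list that also holds regulators of SREBP2, had the lowest median of all lists compared. Of its 24 genes 23 had enough UMIs, 21 of these were at least 2-fold lower in deep injured oligodendrocytes, and none was higher, beside 3.13% of all genes lower. The median log2 ratio was -2.16, and the summed level was 1091 CPM after ONC and 6460 CPM without injury, 5.92-fold lower (5.66 to 6.19). Ebp and Scap had ratios of 0.538 and 0.519, short of the limit, and with the median of all genes set to 0 all 23 passed it. Members were low from the first steps to the last. Hmgcs1, which makes the HMG-CoA used by the pathway, was at 144 and 1516 CPM, 10.5-fold lower (9.31 to 11.9). Fdps, which makes farnesyl diphosphate, was 10.6-fold lower (8.93 to 12.6), and Msmo1, a sterol demethylation enzyme that acts late in the pathway, was 9.91-fold lower (8.34 to 11.9).

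Insig1, which holds the SREBP factors back and is itself an SREBP target, was 9.40-fold lower (7.01 to 12.9), and Srebf2, the gene of SREBP2, was at 54.5 and 180 CPM. At 8000 UMIs per barcode Hmgcs1 had a median of 1 UMI (0 to 7) after ONC and of 10 UMIs (0 to 40) without injury. At that depth Hmgcs1 was found in 61.9% of injured and 99.5% of uninjured barcodes, so most of the injured barcodes held some, at a lower level. Fdps had a median of 0 UMIs (0 to 5) after ONC and of 6 UMIs (0 to 24) without injury.

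**Figure D2:**
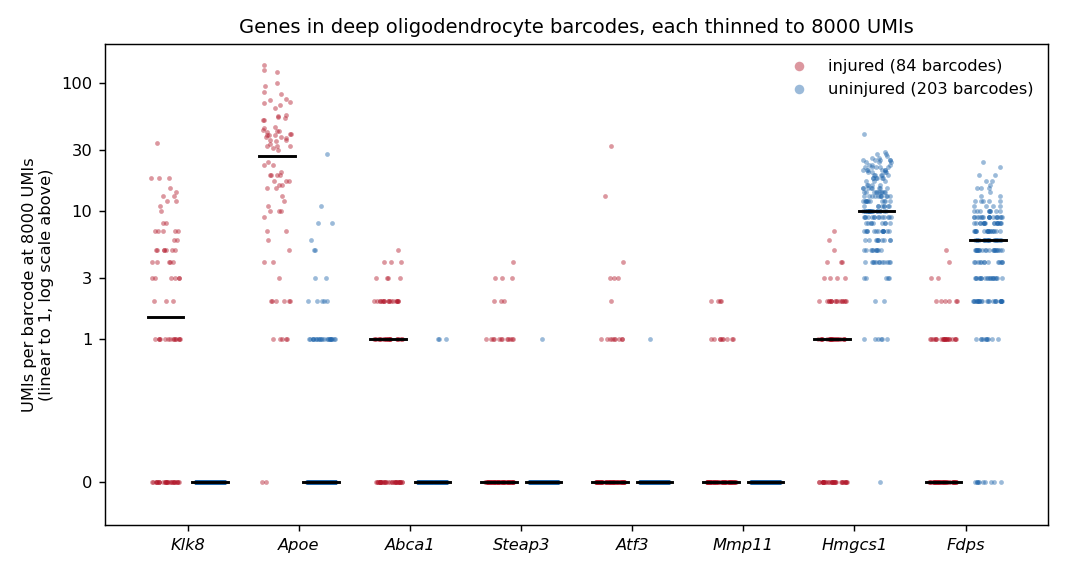
UMIs per barcode of 6 marker genes and of Hmgcs1 and Fdps, with each of 84 injured (red) and 203 uninjured (blue) deep barcodes thinned to 8000 UMIs; black lines are medians, and the y axis is linear to 1 and logarithmic above. Klk8 and Apoe reach 34 and 136 UMIs in injured barcodes, while Hmgcs1 and Fdps are lower there.

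Steap3 encodes a metalloreductase that reduces iron in endosomes. It had 117 UMIs after ONC and 1 without injury, 58.5 and 0.410 CPM, a ratio of 143 (25.1 to 5677), and was found in 40.5% of injured barcodes. In the iron handling list, 3 of 12 measured members were higher and none was lower, beside 7.78% and 3.13% of all genes. Besides Steap3 they were Hmox1, the heme oxygenase (8.31-fold, 4.39 to 17.3), and the metal transporter gene Slc39a14 (4.87-fold, 2.99 to 8.28). Steap3 is a marker gene and passed the minimum only through its injured UMIs. The list's median log2 ratio was 0.11, beside 0.14 for all genes.

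Atf3, a stress-induced transcription factor of the ATF family, had 245 UMIs against 2, 122 and 0.820 CPM, a ratio of 149 (40.9 to 1239). It was found in only 24 of the 84 injured barcodes, 28.6% (19.2 to 39.5%). At 8000 UMIs per barcode 68 of the 84 were at 0 and the highest held 32 UMIs. The 5 highest barcodes held 79.7% of the thinned Atf3 UMIs, compared with 20.9% for Apoe and 29.9% for Klk8, so Atf3 marked few of the injured barcodes and Apoe nearly all. Within barcodes of 8000 to 20000 UMIs the log2 ratio of Atf3 was 5.28, compared with 7.22 in all.

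Mmp11, a secreted metalloprotease, held 40 UMIs against 2, or 42 in all, which is under the minimum of 50, so it was not counted among the genes compared. It was at 19.99 and 0.820 CPM, a ratio of 24.4 (6.32 to 208), and was found in 25% of injured barcodes. Mmp11 overlaps Chchd10 on the other strand of chromosome 10. Chchd10, a protein of the mitochondrial intermembrane space, was 29.0-fold higher (17.3 to 52.3), and reads of the pair may not be told apart without strand. In the list of metalloproteases and their inhibitors, 1 of 6 measured members was higher, beside 7.78% of all genes. That member was Adamts1, with a ratio of 3.05 (2.4 to 3.9).

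The 6 genes were seldom all in 1 barcode. At 8000 UMIs, 8 injured barcodes held 1 of them, 26 held 2, 30 held 3, 14 held 4, 6 held 5 and 0 held all 6. Of the uninjured barcodes 164 held none, 36 held 1 and 3 held 2. Without thinning, 7 injured barcodes held all 6.

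Beside these, the genes with the highest lower bound of the ratio among genes found in at least 25% of the injured barcodes came from several functions. Of these, Ralgps2, a guanine nucleotide exchange factor for Ral, was 33.5-fold higher (19.3 to 63.4). Fxyd7, a regulator of the sodium pump, was 26.3-fold higher (15.4 to 48.6). Cpe, carboxypeptidase E, was at 385 and 32.4 CPM, a ratio of 11.9 (9.42 to 15.2). It was found in 92.9% of injured and 26.1% of uninjured barcodes, and after thinning in 82.1% and 18.7%. From 8000 to 12000 UMIs its ratio was smaller, 5.80 (3.31 to 9.88).

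Tspan4, a tetraspanin, and Tagln2, an actin-binding protein, were 35.0-fold (13.3 to 131) and 20.2-fold (12.6 to 34.6) higher. Col6a2, a collagen VI chain, had 68 UMIs against 2, a ratio of 41.4 (11.03 to 349). Hspb8, a small heat shock protein, was 21.5-fold higher (9.57 to 59.96), and Myof, a membrane repair protein, 20.7-fold (8.54 to 65.4). From 8000 to 12000 UMIs Hspb8 had 1 UMI against 5, a ratio of 2.32 (0.0490 to 20.7), and Myof 1 against 2. That window cannot show either. Ier5l and the growth arrest gene Gadd45g were 27.0-fold (11.2 to 84.9) and 17.9-fold (12.0 to 28.1) higher. Gadd45g was uneven, with 59.6% of its thinned UMIs in 5 barcodes, and its ratio was 1.36 (0.153 to 5.74) from 8000 to 12000 UMIs, 5.25 (1.95 to 15.5) from 12000 to 20000 and 53.4 (9.53 to 2116) on 1 uninjured UMI above that.

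Among the genes with the lowest upper bound that are not of the cholesterol list, Paqr7, a membrane progestin receptor, had 3 UMIs against 96 (26.3-fold lower, 8.72 to 130), and Deptor, an inhibitor of mTOR, 4 against 83 (17.0-fold lower, 6.41 to 64.0). Ldhb, which interconverts lactate and pyruvate, was at 23.0 and 150 CPM, 6.53-fold lower (4.80 to 9.08). It was not lower from 8000 to 12000 UMIs, at 7 and 70 UMIs, a ratio of 1.16 (0.450 to 2.52), and its uninjured level was 244 CPM from 12000 to 20000 UMIs. The other 9 of these 12 genes were of the cholesterol list.

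Promoters of these genes are shown with sites searched by their letters, because 3 of the 20 genes with the highest lower bound of the ratio held the same one. RefSeq windows from 250 bases before to 50 after the start (GRCm38.p6) were matched for 16 of the 20 and searched on both strands for TGATGCAA, a CARE site bound by ATF4 with C/EBP partners. Atf3, Chchd10 and Gadd45g held it, 18.8% of the 16, against 1.03% of 27025 genes with a window. TGACTCA, the AP-1 site, was in 6.25% of the 16 and 5.95% of all, and TGACGTCA, the CRE site, in 0% and 2.03%. TCACNCCAC, a form of the sterol regulatory element chosen after the values were seen, was in Hmgcs1 alone among 18 matched cholesterol synthesis genes (5.56%), in Paqr7, and in 1.44% of all. The motif is in capitals, each sequence runs 5′ to 3′ on the gene's strand, and a match is only a description.
Atf3 (chr1:191183284-191183583, minus strand, site 110 bases before the start): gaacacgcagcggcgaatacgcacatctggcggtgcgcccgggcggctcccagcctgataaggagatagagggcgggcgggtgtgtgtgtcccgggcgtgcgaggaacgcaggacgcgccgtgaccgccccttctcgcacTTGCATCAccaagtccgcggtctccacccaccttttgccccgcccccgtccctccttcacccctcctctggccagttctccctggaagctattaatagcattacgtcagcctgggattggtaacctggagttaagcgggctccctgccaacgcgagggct
Chchd10 (chr10:75932880-75933179, plus strand, sites 85 and 72 bases before the start): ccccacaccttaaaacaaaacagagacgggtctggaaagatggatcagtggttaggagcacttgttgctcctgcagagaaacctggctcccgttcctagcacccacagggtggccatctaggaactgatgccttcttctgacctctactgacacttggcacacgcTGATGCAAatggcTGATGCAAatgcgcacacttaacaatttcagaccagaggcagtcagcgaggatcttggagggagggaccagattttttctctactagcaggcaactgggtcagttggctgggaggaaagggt
Gadd45g (chr13:51846425-51846724, plus strand, site 101 bases before the start): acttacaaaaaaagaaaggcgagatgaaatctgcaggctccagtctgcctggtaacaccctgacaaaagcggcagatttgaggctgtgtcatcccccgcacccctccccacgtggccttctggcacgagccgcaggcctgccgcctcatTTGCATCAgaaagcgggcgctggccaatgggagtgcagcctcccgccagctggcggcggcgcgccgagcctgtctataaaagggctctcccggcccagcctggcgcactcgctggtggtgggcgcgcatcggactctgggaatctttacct
Hmgcs1 (chr13:119690101-119690400, plus strand, site 137 bases before the start): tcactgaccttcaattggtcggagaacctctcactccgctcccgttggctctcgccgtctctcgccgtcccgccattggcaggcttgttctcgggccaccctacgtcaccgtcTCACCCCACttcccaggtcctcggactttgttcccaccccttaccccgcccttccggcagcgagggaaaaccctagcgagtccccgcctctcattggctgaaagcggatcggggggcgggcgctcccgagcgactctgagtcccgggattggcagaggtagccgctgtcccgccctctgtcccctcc

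Stress and transcription factor genes were tallied by list, each count to be read beside the 7.78% higher and 3.13% lower of all genes. Atf3, Cebpb, Hspb8, Runx1, Sox4 and Cdkn1a held under 50 UMIs without injury, so they passed the minimum only through the injured barcodes. Atf3 is also a marker gene and counts in both the stress response and the transcription factor list. Of the 15 measured genes of the integrated stress response, the programme run by ATF4, 5 were at least 2-fold higher and 2 lower. The higher ones were Atf3, Cebpb (11.6-fold, 6.90 to 20.8), Nupr1 (4.404-fold, with UMIs in 5.95% of injured barcodes), Atf5 (3.30-fold) and Ppp1r15a (3.25-fold). From 8000 to 12000 UMIs Cebpb had 1 UMI against 11, a ratio of 1.05 (0.0245 to 7.25). Psat1 and Phgdh, enzymes of serine synthesis, were lower, at ratios of 0.306 and 0.420. Atf4 RNA itself had a ratio of 0.879 (0.707 to 1.09), and the list's median log2 ratio was 0.20. The summed level of the list was lower after ONC, at 1393 and 1632 CPM, a ratio of 0.854 (0.813 to 0.896). From 8000 to 12000 UMIs that ratio was 0.617 (0.508 to 0.743). Of 17 endoplasmic reticulum chaperones, 4 were past 2-fold higher and none lower, among them Hyou1 (2.61-fold) and Hspa5 (2.07-fold). With the median of all genes set to 0, 1 of the 4 remained past the limit. Of 14 heat shock genes, Hspb8, Bag3 and Hspa4 were higher and Hspa1a was lower, at the limit, and with the median of all genes set to 0 Hspa4 was no longer past it.

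Of 15 measured injury-linked transcription factors 6 were higher and none was lower, including Atf3, Runx1, a factor of blood cell and sensory neuron development (18.9-fold, 8.35 to 52.8), Sox4, a factor of immature cells (14.9-fold, 8.83 to 27.2), and Socs3, a cytokine signalling inhibitor (5.88-fold, 4.69 to 7.44). From 8000 to 12000 UMIs Runx1 had 1 UMI against 4, a ratio of 2.90 (0.0588 to 29.3), and Sox4 had 12 against 1. Of 12 immediate early genes 5 were higher, with Fos at 1013 and 352 CPM (2.87-fold, 2.65 to 3.12), Btg2 and Junb, and 4 were with the median of all genes set to 0. The summed ratio of that list was 1.11 in barcodes of 8000 to 12000 UMIs, 1.44 from 12000 to 20000 and 1.97 above 20000. Of 11 p53 targets and cell death genes 3 were higher and 1 lower. Cdkn1a, the p21 cell cycle inhibitor, was at 108 and 8.61 CPM, 12.5-fold higher (7.99 to 20.7), and Gadd45a was 4.18-fold higher. Sesn1 had a ratio of 0.305.

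Genes of immune recognition were also higher. Of 6 measured genes of antigen presentation and complement 4 were past 2-fold, against 7.78% of all genes, and the median log2 ratio was 1.33. H2-D1 and H2-K1, classical MHC class I genes, were 4.44-fold (3.96 to 5.00) and 2.87-fold (2.26 to 3.66) higher, and B2m, their light chain, 4.27-fold (3.47 to 5.29). Serpina3n, a secreted protease inhibitor, was at 1001 and 451 CPM, but short of 2-fold in barcodes of 12000 to 20000 UMIs (1.66) and above (1.74). Complement C4b, at 1652 and 955 CPM, was 1.73-fold higher and short of the limit. Of 7 interferon response genes Irf1 and Xaf1 were higher and Ifi27l2a lower, and Xaf1 fell short with the median of all genes set to 0. Of 6 trophic factors and cytokines, Il33, an alarmin, was at 1446 and 222 CPM (6.51-fold, 5.94 to 7.15), and Gas6, a ligand of TAM receptors, was at 66.5 and 5.74 CPM (11.6-fold, 6.66 to 21.7). The ratio of Il33 was 2.34, 9.13 and 12.3 from the shallowest to the deepest window.

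The summed level of lysosome genes was higher by a smaller factor. Of 25 measured, 6 were past 2-fold higher (7.78% of all genes were), none was 2-fold lower, 19 were within 2-fold and 5 had a ratio under 1. Among the 6 were Ctsb, a cysteine protease, at 1254 and 239 CPM (5.25-fold, 4.80 to 5.76), Cd63, a tetraspanin of late endosomes, at 1207 and 270 CPM (4.47-fold, 4.10 to 4.88), and Hexa, a subunit of hexosaminidase (2.51-fold). The summed level of the 26 genes was 8955 and 4573 CPM, and its ratio lay between 1.76 and 1.90 in all 3 depth windows. Single members could differ: from 8000 to 12000 UMIs the ratio of Cd63 was 2.38 (1.89 to 2.96) and that of Ctsb 5.11 (4.16 to 6.25). Ctsb overlaps Fdft1, a cholesterol synthesis gene that was lower, on the other strand. Among 16 autophagy genes, the receptors Optn (2.67-fold) and Sqstm1 (2.30-fold) were higher and none was lower.

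**Figure D3:**
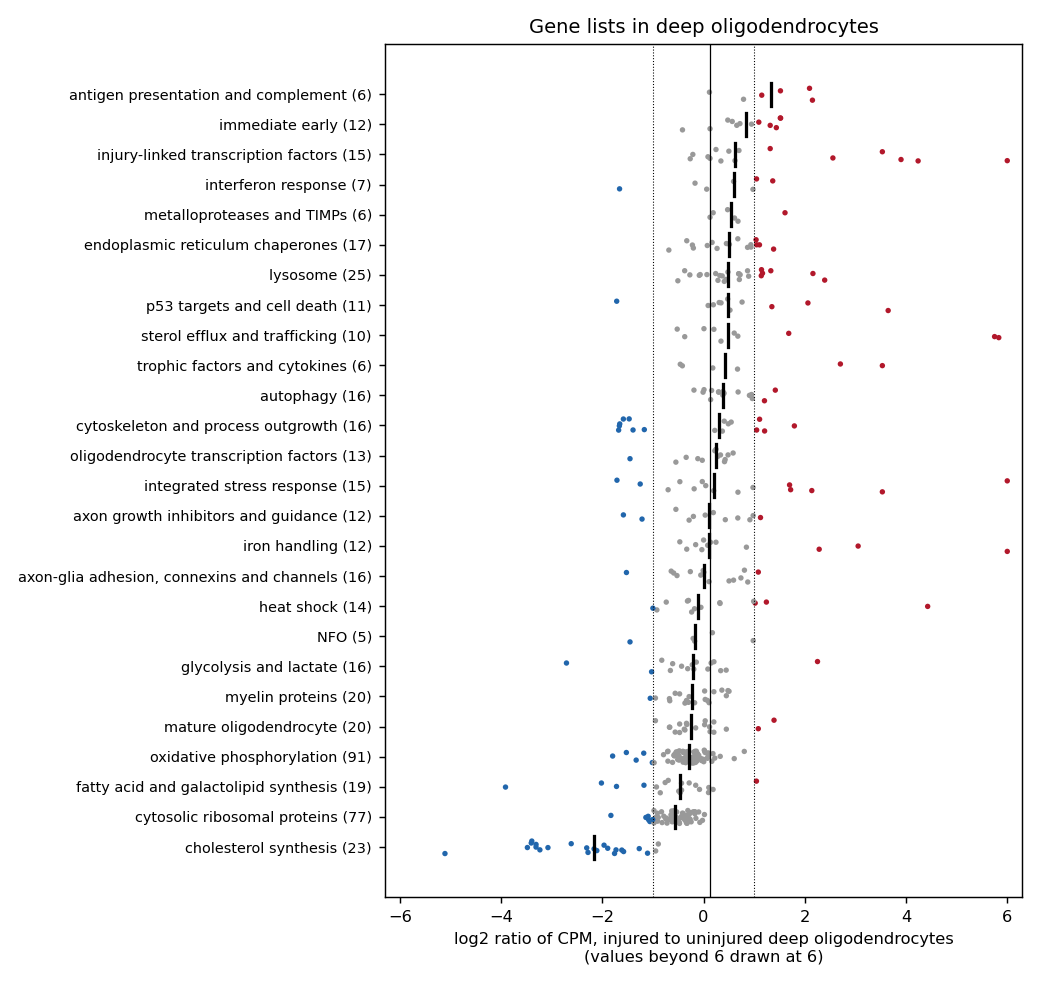
The log2 ratio of CPM (x axis) of each gene with at least 50 summed UMIs in 26 lists, with the number of genes in brackets; thick bars are list medians, the thin line is the median of all genes, 0.14, and dotted lines mark 2-fold. Red points are at least 2-fold higher and blue points at least 2-fold lower after ONC; cholesterol synthesis lies lowest, with a median of -2.16.

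Myelin proteins differed less. Of 20 measured none was past 2-fold higher and 1, Gpm6b, was lower (1489 and 3088 CPM), beside 7.78% and 3.13% of all genes, and 2 were lower with the median of all genes set to 0. The median log2 ratio was -0.23, with Mbp at 0.627-fold and Mag at 1.02-fold of the uninjured level. Of the 20 mature oligodendrocyte markers, Apod, a lipocalin (2.63-fold, 2.55 to 2.70), and Gjb1, the connexin 32 gene (2.12-fold), were higher. Gjb1 fell short with the median of all genes set to 0, and Apod had ratios of 5.31, 1.79 and 1.98 from the shallowest to the deepest window. Of 13 factors that direct the lineage, Tcf7l2, which is found in newly formed oligodendrocytes, was lower (12 UMIs against 40), and none was higher.

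For the axon growth inhibitors, Rtn4, which encodes Nogo-A, was at 3203 and 1624 CPM, 1.97-fold (1.90 to 2.05) and just short of the limit. Omg, oligodendrocyte myelin glycoprotein, was at 57.0 and 171 CPM, a ratio of 0.334 (0.269 to 0.412), and Sema6a had a ratio of 0.431. Of the 12 genes measured, 2 were lower, beside 3.13% of all genes, and Sema7a alone was past 2-fold higher (2.18, 1.605 to 2.99), beside 7.78%, and it fell short with the median of all genes set to 0. Of 16 genes of axon-glia adhesion, connexins and channels, Gjb1 was higher, with the same shortfall, and Cadm1, an adhesion molecule, was lower (0.348).

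Of 16 cytoskeleton genes 4 were higher and 7 lower, beside 7.78% and 3.13% of all genes. Tubb3, Marcksl1, Map1b and Actg1 were between 2.07- and 3.47-fold higher, and with the median of all genes set to 0, 2 of the 4 were. Tubb3 had a ratio of 1.39 (0.269 to 4.56) from 8000 to 12000 UMIs. The 7 lower ones were 6 tubulins and Stmn1, with Tubb4a, the tubulin of myelinating oligodendrocytes, at 490 and 1552 CPM and Tuba1a at 892 and 2808 CPM. Tubulin genes are near-identical copies, so reads can be split among them. Of 19 genes of fatty acid and galactolipid synthesis, 4 were lower. Fads1, a fatty acid desaturase, had 0 UMIs against 55, a log2 ratio of at most -3.91 with 3 UMIs taken over the injured group. Acly, which makes acetyl-CoA in the cytosol, had a ratio of 0.247 (0.182 to 0.329), and Fa2h and Scd1 had ratios of 0.304 and 0.442. Srebf1, the gene of SREBP1, was higher (2.06-fold, 1.57 to 2.73), and fell short of the limit with the median of all genes set to 0.

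Of 91 genes of oxidative phosphorylation 5 were lower (5.49%, beside 3.13% of all genes) and none higher, and all 5 were encoded by the mitochondrial genome, led by mt-Nd3 (0.288) and mt-Co3 (0.348). Of 77 cytosolic ribosomal protein genes 7 were lower (9.09%), among them Rpl13a (0.281) and Rpl17 (0.454), none was higher, and the median log2 ratio was -0.55. With the median of all genes set to 0, 16 of the 77 were lower. Ribosomal protein genes have many pseudogene copies, so their counts are uncertain. Of 16 glycolysis and lactate genes, Eno2 was higher (4.76-fold, 2.41 to 10.2), and Ldhb, which was not lower in the shallowest window, and the glucose transporter Slc2a1 (0.491) were lower. These are 6.25% higher and 12.5% lower, beside 7.78% and 3.13% of all genes.

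Because deep injured barcodes were deeper than deep uninjured ones, the groups were also compared within windows of depth. From 8000 to 12000 UMIs there were 11 injured and 132 uninjured barcodes, from 12000 to 20000 there were 19 and 62, and above 20000 there were 54 and 9. Apoe was 55.1-fold (42.9 to 71.5), 59.2-fold (46.9 to 75.8) and 31.2-fold (22.1 to 45.7) higher in those windows. Klk8 was at 571, 325 and 572 CPM in the injured windows and at 1, 0 and 0 UMIs in the uninjured, and was at least 95.2-fold and 45.5-fold higher in the second and the third, with 3 UMIs taken over the uninjured group. Abca1 had ratios of 37.7 (11.6 to 159) and 65.1 (17.0 to 553) and was at least 10.4-fold higher above 20000 UMIs. Steap3 had 1, 14 and 102 UMIs in the injured windows and 0, 1 and 0 in the uninjured, so the shallowest window cannot show a difference. Its injured level there was 8.78 CPM (0.222 to 48.9), below the 58.5 CPM (48.4 to 70.1) of all deep injured barcodes. The summed cholesterol synthesis genes were 3.85-fold, 8.65-fold and 4.86-fold lower.

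**Figure D4:**
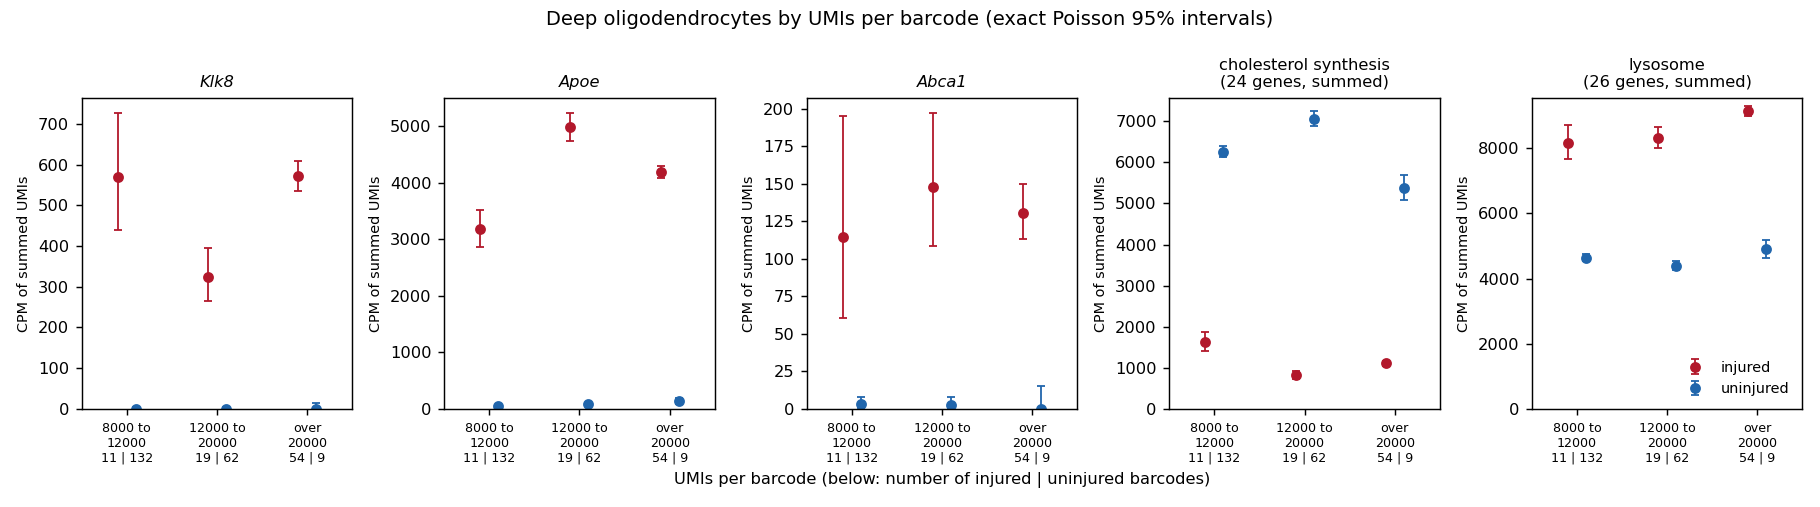
CPM of summed UMIs of Klk8, Apoe, Abca1, 24 cholesterol synthesis genes and 26 lysosome genes in 3 windows of UMIs per barcode, with exact Poisson 95% intervals and the number of injured and uninjured barcodes under each window. In each window the injured level (red) of the first 3 and of the lysosome genes lies above the uninjured level (blue), and that of the cholesterol synthesis genes below it.

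Within the injured library, deep oligodendrocytes were set beside 76 oligodendrocyte barcodes of middle depth (under 8000 UMIs and at least 0.5% Malat1) and 133 poor in Malat1. These barcodes were parted by depth and Malat1, so those measures are not compared. Klk8 was at 533 CPM in deep, 98.2 CPM (57.2 to 157) in middle and 218 CPM (145 to 316) in Malat1-poor barcodes, and Atf3 at 122, 46.2 (19.96 to 91.1) and 39.0 CPM (12.7 to 91.1). Klk6 was at 3639, 1566 and 1748 CPM. In the other types of that library Klk8 was found in 3 of 100 NFO barcodes (newly formed oligodendrocytes, median depth 1258.5 UMIs) and 1 of 17 OPC barcodes (precursors, 4120 UMIs), against 63 of the 84 deep oligodendrocytes. Abca1 was higher in the middle barcodes than in the deep ones, at 399 CPM (310 to 505) against 132 CPM (117 to 149), a ratio of deep to middle of 0.332 (0.254 to 0.439). In the uninjured library the deep to shallower ratio of Abca1 was 0.449 (0.131 to 1.41). Hmgcs1 was at 144, 63.6 and 125 CPM in the 3 injured groups, and in uninjured barcodes at 1516 CPM in deep and 1480 CPM in 606 shallower ones. The low level of cholesterol synthesis genes was thus found at every depth in the injured oligodendrocytes, with 1091, 745 and 577 CPM summed over the list.

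Apoe was higher in every barcode type of the injured library than in the same type without injury. It was at 4254 CPM in deep, 3582 CPM (3306 to 3876) in middle and 6477 CPM (6044 to 6933) in Malat1-poor oligodendrocytes, at 1702 CPM in newly formed oligodendrocytes (NFOs) and at 1454 CPM in oligodendrocyte precursors (OPCs), where it was found in 100% of 17 barcodes with a median depth of 4120 UMIs. In the uninjured library OPCs were at 741 CPM. Macrophage and microglia genes were also found in all the injured types, at 1577 CPM in middle and 3121 CPM in Malat1-poor barcodes. Leaving out Lgals3, the injured library held 34.5 UMIs of Apoe per macrophage UMI in deep oligodendrocytes, 2.33 in middle and 2.14 in Malat1-poor oligodendrocytes, 1.83 in NFOs and 3.42 in OPCs. The ratio of the deep barcodes thus differed from that of the other types. In injured oligodendrocyte barcodes without any such macrophage UMI, Apoe was at 2522 CPM in 10 deep, 1365 CPM in 9 middle and 4054 CPM in 18 Malat1-poor barcodes. Among the 84 barcodes, Spearman's rho of Apoe with the summed macrophage genes was 0.14 at 8000 UMIs each. How much free RNA adds to Apoe in each type was not tested. Lyz2, a macrophage lysozyme, was at 20.5 CPM in deep and 460 CPM in Malat1-poor barcodes.

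**Figure D5:**
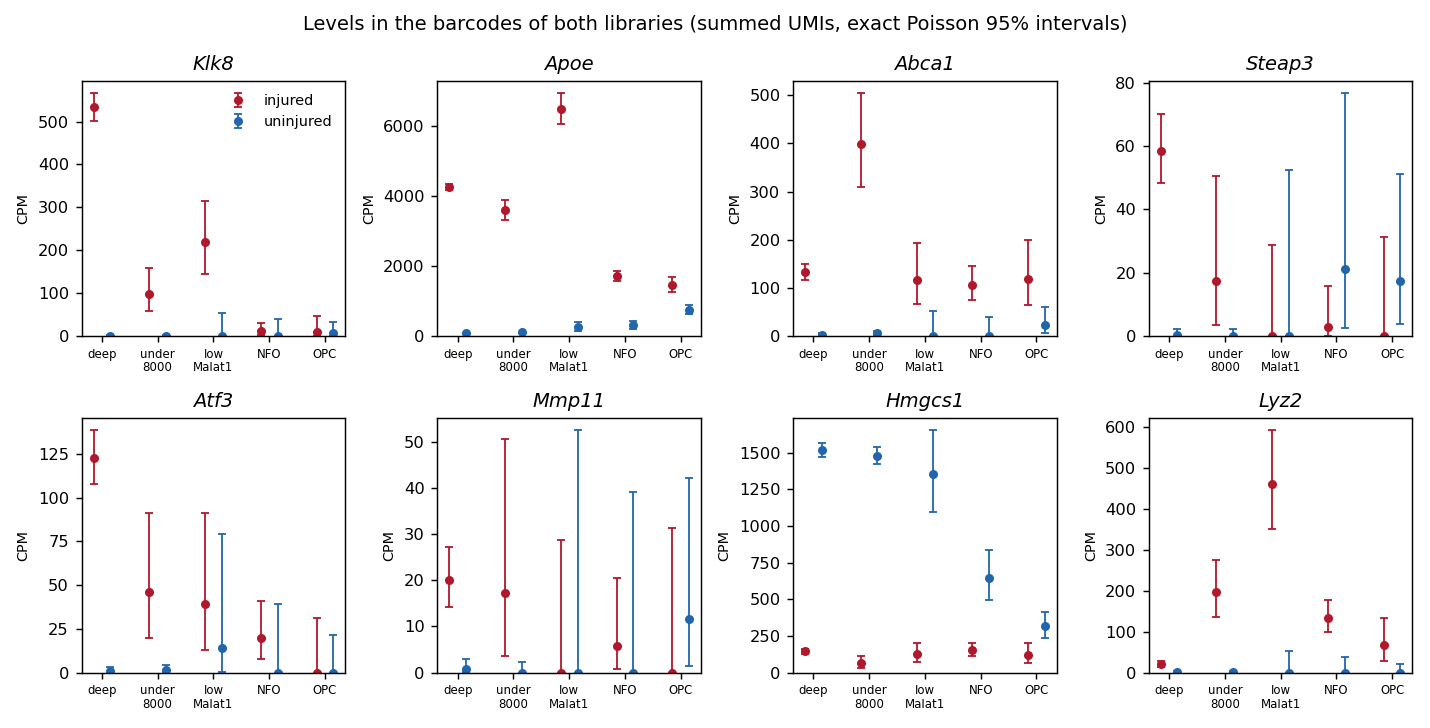
CPM of summed UMIs, with exact Poisson 95% intervals, of 6 marker genes, Hmgcs1 and Lyz2 in deep oligodendrocytes, oligodendrocytes under 8000 UMIs with at least 0.5% Malat1, oligodendrocytes low in Malat1 (under 0.5%), NFOs and OPCs of the injured (red) and uninjured (blue) library. Klk8, Steap3 and Atf3 have their highest point in deep injured barcodes, Apoe and Lyz2 in injured barcodes low in Malat1, and Hmgcs1 is lower in every injured type than in the same uninjured type.

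The spread among barcodes was set against counting alone. Over the 2914 genes with a mean of at least 0.5 UMIs at 8000 UMIs per barcode, the median variance over mean was 1.12 in both the deep injured and the deep uninjured barcodes, where counting alone gives about 1. In the injured barcodes Apoe had 28.2, Fos 19.3, Atf3 17.5, Klk6 10.7, Gadd45g 9.81 and Klk8 8.14. In the uninjured barcodes Apoe had 10.2 and Klk6 16.5. Across the 84 barcodes, which share a library, Apoe ran with Cpe (Spearman's rho 0.58), with the summed lysosome genes (0.42) and with Abca1 (0.34), and against the summed myelin protein genes (-0.47). Klk8 ran with Klk6 (0.47), while its rho with Apoe was -0.17. Klk6 ran with Serpina3n (0.58). Each rho is over thinned counts, a description of these 84 barcodes that shares their depth, and in genes with few UMIs a weak rho is no finding.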

How the data were processed

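Single cells of 2 optic nerve libraries were measured on the Chromium system. The submitters' processing notes name Cell Ranger 1.3, bcl2fastq 2.17.1.14, Seurat 4.0.3 and the mm10 build. The authors deposited normalized expression as the natural log of 1 plus UMIs scaled to 10000 per barcode, with their cell types. They had filtered cells on mitochondrial share, genes and UMIs and subsampled the libraries to equal numbers before keeping the oligodendrocyte lineage. Whole UMI counts were recovered from the deposited natural log values by taking the smallest value of a barcode as 1 UMI, and came out whole in 100% of barcodes (tolerance 0.001). The deposited table combining both libraries was not used.

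UMIs were summed over each group and expressed as CPM. Ratios were given with exact conditional 95% intervals, CPM with Poisson and shares with Clopper-Pearson intervals, checked on simulated data. A gene needed 50 summed UMIs, and higher or lower means at least 2-fold. A gene rare in a group could pass that minimum through the other group alone. Barcodes were thinned to 8000 UMIs once, at random. Both conditions have 1 library, so no test was run.

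The text names the 6 markers, the 20 genes of highest lower bound and the 12 of lowest upper bound of the ratio among genes found in 25% of barcodes, and the members of each list farthest from 1. Other list members were chosen after their values were seen. Some of these genes are not reported here. Members and lists were chosen with earlier results of these data known. Of 31053 gene names, 30438 matched GENCODE vM21 (GRCm38), and 26 date-like names were not named. In all 14 alternatives were tried. Python 3.11.15, numpy 2.4.6, pandas 2.3.3, scipy 1.17.1, scanpy 1.11.5 (Scrublet) and matplotlib 3.10.9 were used.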

Additional observations from a re-analysis of the deposited data

How the results depend on the processing

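No paired analysis was possible because each condition has 1 library. Of 28 recomputed numbers of genes past 2-fold, 24 stayed within 1.5 times of the reported ones. The others were with another minimum, and the cause was not tested: a minimum of 200 summed UMIs gave 221 higher and 107 lower genes of 3615, and 1 UMI in each group gave 1690 higher (13.9%) and 848 lower (6.96%) of 12191. Of 84 log2 ratios of the 6 markers 80 stayed within the counting interval of the reported value. With a limit of 12000 UMIs, Klk8 had no uninjured UMI left and a log2 ratio of at least 7.63, with 3 UMIs taken over the uninjured group, and Apoe had 5.51. Atf3 had 5.28 in barcodes of 8000 to 20000 UMIs, and Apoe 6.23 without the barcode of each group that held most of it. Of the list medians under each alternative, 412 stayed within the interval of the reported median and 29 moved without changing sign. The median of the OPC list, 1.85 from Lhfpl3 alone, was -0.0293 with 1 UMI in each group, where more of its genes were compared. Leaving out barcodes under 0.5% Malat1 removed none, Scrublet doublets 2 uninjured, and barcodes with 0.1% or more macrophage UMIs 1 uninjured.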

Other observations

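Among the most uneven genes of the deep injured oligodendrocytes outside the lists, Gm26870 had a variance over mean of 34.4 at 8000 UMIs per barcode, against 0.995 in deep uninjured barcodes, and Ptgds, the prostaglandin D synthase of mature oligodendrocytes, had 56.2 against 81.6. Rnase4, a secreted ribonuclease, had a mean of 1.01 UMIs per barcode after ONC and 0.123 without injury, and S100a1, a calcium-binding protein, 7.74 and 1.54. Mt1, a metallothionein that binds zinc, had a mean of 8.39 and 2.08 UMIs per barcode, and Gadd45b, a stress-response gene, 1.40 and 0.153. These genes were chosen after their values were seen.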
